A study of Homo sapiens with 10 samples.

Results

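HSF1 is the main transcription factor of the heat shock response, and its peaks were described on the outer parts of 4 chromosome long arms: 8q and 10q from 100 Mb, 16q from 80 Mb and 17q from 40 Mb, each to the chromosome end (hg19). A peak was a member if its midpoint lay in one of these intervals, and 1554 of the 8124 peaks of 6 deposited lists were members. The lists come from chromatin immunoprecipitation and sequencing (ChIP-seq) of HCT116, an established human colon cancer line, with 5 µg of an antibody to HSF1. Cells without a change in FBXW7 (WT) and cells with FBXW7 knocked out (KO) were either untreated or heat shocked for 1 h at 42 °C. WT heat shock and KO heat shock have 2 libraries each and untreated WT and untreated KO have 1 each. The labels do not say how the KO line was made, whether it is 1 clone, or whether replicates are independent cultures, and differences among replicates may thus be technical.

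HSF1 is held inactive by chaperones in unstressed cells, forms trimers when proteins misfold and then binds heat shock elements at chaperone and other genes. FBXW7 is the substrate-recognising subunit of a ubiquitin ligase, and HSF1 is among its known substrates. HCT116 has a near-diploid karyotype in which gains of parts of 8q, 10q, 16q and 17q are well known. A gain gives a stretch of the genome more DNA copies than the rest, and so more fragments in any sequencing library made from the cells. Copy number was not measured in these files and the 4 input libraries were not analysed here, so whether extra copies had a part in any value below was not tested. The gene for HSF1 itself lies on 8q and that for the co-chaperone BAG3, a known HSF1 target, on 10q; no gene was assigned to a peak, because no hg19 annotation was at hand.

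The intervals span 133 Mb, 4.40% of chromosomes 1 to 22 and X, and the rest of the 4 chromosomes spans 320 Mb. They were chosen by the density and recurrence of these same peaks, which had been seen along the chromosomes. All values below are therefore descriptions without a test, and a high density inside is no finding of its own. The lists held 79 to 225 peaks in WT and 1566 to 3257 in KO, and their read depth is unknown. WT peaks were also called wider than KO peaks, so that comparisons between the intervals and the rest were made within each list.

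In every list, peaks were denser inside the intervals than in the rest of the 4 chromosomes. WT heat shock replicate 1 had 91 peaks inside and 24 in the rest, or 0.682 against 0.0750 peaks per Mb. WT heat shock replicate 2 had 54 and 10, or 0.405 against 0.0312 per Mb. Untreated WT had 19 and 6, or 0.142 against 0.0188 per Mb. The WT lists are short, and the rest holds no more than 24 peaks in any of them.

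The KO lists had more peaks on both sides and a smaller ratio. KO heat shock replicate 1 had 237 peaks inside and 160 in the rest, at 1.78 and 0.500 per Mb. KO heat shock replicate 2 had 639 and 312, at 4.79 and 0.975 per Mb. Untreated KO had 514 and 298, at 3.85 and 0.931 per Mb. The rest of the 4 chromosomes was close to the other chromosomes in KO, which had 0.433, 0.876 and 0.770 peaks per Mb in the same lists. In WT heat shock replicates 1 and 2 the other chromosomes had 0.0383 and 0.0248 per Mb, below the rest of the 4, and in untreated WT they had 0.0205, slightly above it.

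As a fold of density inside over the rest, the WT lists gave 9.09 and 12.9 after heat shock and 7.59 untreated, and the KO lists gave 3.55 and 4.91 after heat shock and 4.14 untreated. The mean log2 ratio after heat shock was 3.44 in WT (SD 0.36, n = 2) and 2.06 in KO (SD 0.33, n = 2). The 3 WT values all lay above the 3 KO values. The exact 95% interval of untreated WT, 2.92 to 23.2-fold, nevertheless covers every KO value, and these intervals hold for counting error only. Untreated libraries lay below both heat shock libraries in WT and between them in KO. With only peaks that scored 100 or more, the fold was 5.99 in WT heat shock (10 peaks inside, 5 in the rest) and 1.20 in untreated WT (1 and 2). It was 3.74 in KO heat shock (103 and 73) and 2.69 in untreated KO (56 and 50). The SD of the log2 ratio was then 1.41 in WT heat shock and 0.51 in KO heat shock (n = 2 each). For these peaks WT thus no longer lay above KO throughout.

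The same can be read from the share of each list that lay inside. It was 40.4% in WT heat shock replicate 1, 41.2% in replicate 2 and 24.1% in untreated WT (exact 95% interval of the last 15.1 to 35.0). In KO it was 15.1% and 19.6% after heat shock and 17.9% untreated. All 6 shares exceeded the 4.40% of the genome that the intervals span. After heat shock the KO lists held 2.60 to 11.8 times as many peaks as the WT lists inside the intervals and 6.67 to 31.2 times as many in the rest, over the 4 pairs of libraries. Without heat shock these figures were 27.1 and 49.7. For the 4 intervals summed, the excess of KO peaks was thus smaller inside than in the rest in each pair. On 16q it was larger inside in 2 of the 4 heat shock pairs, at 7.17 against 6.71 (replicate 1 of both lines) and 22.5 against 13.4 (KO replicate 2 over WT replicate 1).

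**Figure D1:**
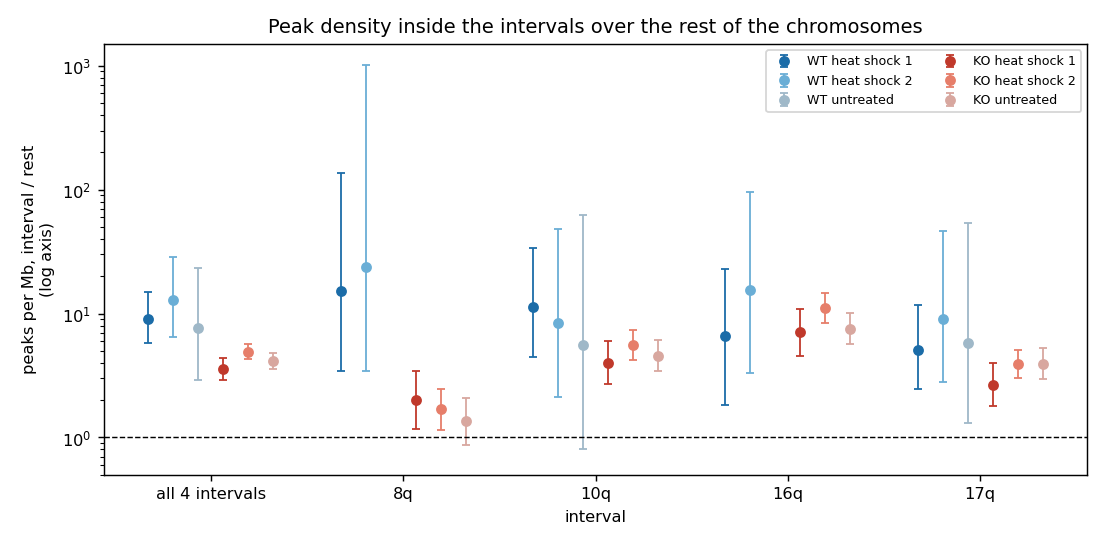
Fold of peak density (peaks per Mb) inside the intervals over the rest of the same chromosomes, on a log axis, for each of the 6 libraries and for all 4 intervals together or each alone. Points are single libraries, bars exact 95% intervals from counting, and the dashed line marks equal density; untreated WT has no point at 8q (3 peaks inside, 0 in the rest) and at 16q (0 and 2), and the KO points are lowest at 8q.

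The 4 intervals differed among themselves, and differently in each line. On 16q, the shortest at 10.4 Mb, the KO lists had their steepest rise, 7.07-fold and 11.1-fold after heat shock and 7.57-fold untreated. On 10q (35.5 Mb) the KO folds were 4, 5.56 and 4.56 in the same order, and on 17q (41.2 Mb) 2.65, 3.88 and 3.91. On 8q (46.4 Mb) they were 2.02, 1.70 and 1.35, the lowest of the 4 in each KO list. This order held for all peaks and not for strong ones: at scores of 100 or more, the KO heat shock fold was 4.85 on 8q, 1.62 on 10q, 6.43 on 16q and 2.31 on 17q, so that 10q was lowest. With all peaks, the WT heat shock lists instead had their highest folds on 8q, at 15.1 (14 peaks inside, 2 in the rest) and 23.7 (11 and 1). Their folds on 10q were 11.3 and 8.44, on 16q 6.62 and 15.5, and on 17q 5.07 and 9.06. Against the rest of the long arms alone, the mean WT heat shock fold was 9.82 on 8q and 19.1 on 16q, where the rest held 2 peaks in all, and 16q was then the highest. At 8q the 2 WT heat shock values and the 3 KO values do not overlap, and the lower ends of the WT intervals, 3.47 and 3.45-fold, lie next to the upper end of KO heat shock replicate 1, 3.46-fold. Untreated WT had 3 peaks on 8q, 4 on 10q, 0 on 16q and 12 on 17q.

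A large part of the KO rise on 8q came from a single short cluster, singled out after its values were seen. The 25-kb stretch with the most peaks on 8q, chr8:145515377-145538707, held 35 peaks of all lists. KO heat shock replicate 1 had 12 of them, replicate 2 had 11 and untreated KO had 6, which were 73 to 365 bp wide with scores of 52.1 to 771. WT heat shock replicate 1 had 1 peak there, replicate 2 had 3 and untreated WT had 2, each 1372 to 1857 bp wide. Without this stretch the KO folds on 8q were 1.18, 1.34 and 1.13, and those of WT heat shock replicates 1 and 2 were 14.0 and 17.3. In no other interval did a 25-kb stretch hold more than 10 peaks, the number at chr17:41381099-41401297. The median score on 8q was 76.4 with the cluster and 57.6 without it in KO heat shock replicate 1, 60.3 and 57.0 in replicate 2, and 60.1 and 58.5 in untreated KO, so that it moved clearly in the first of these lists.

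**Figure D2:**
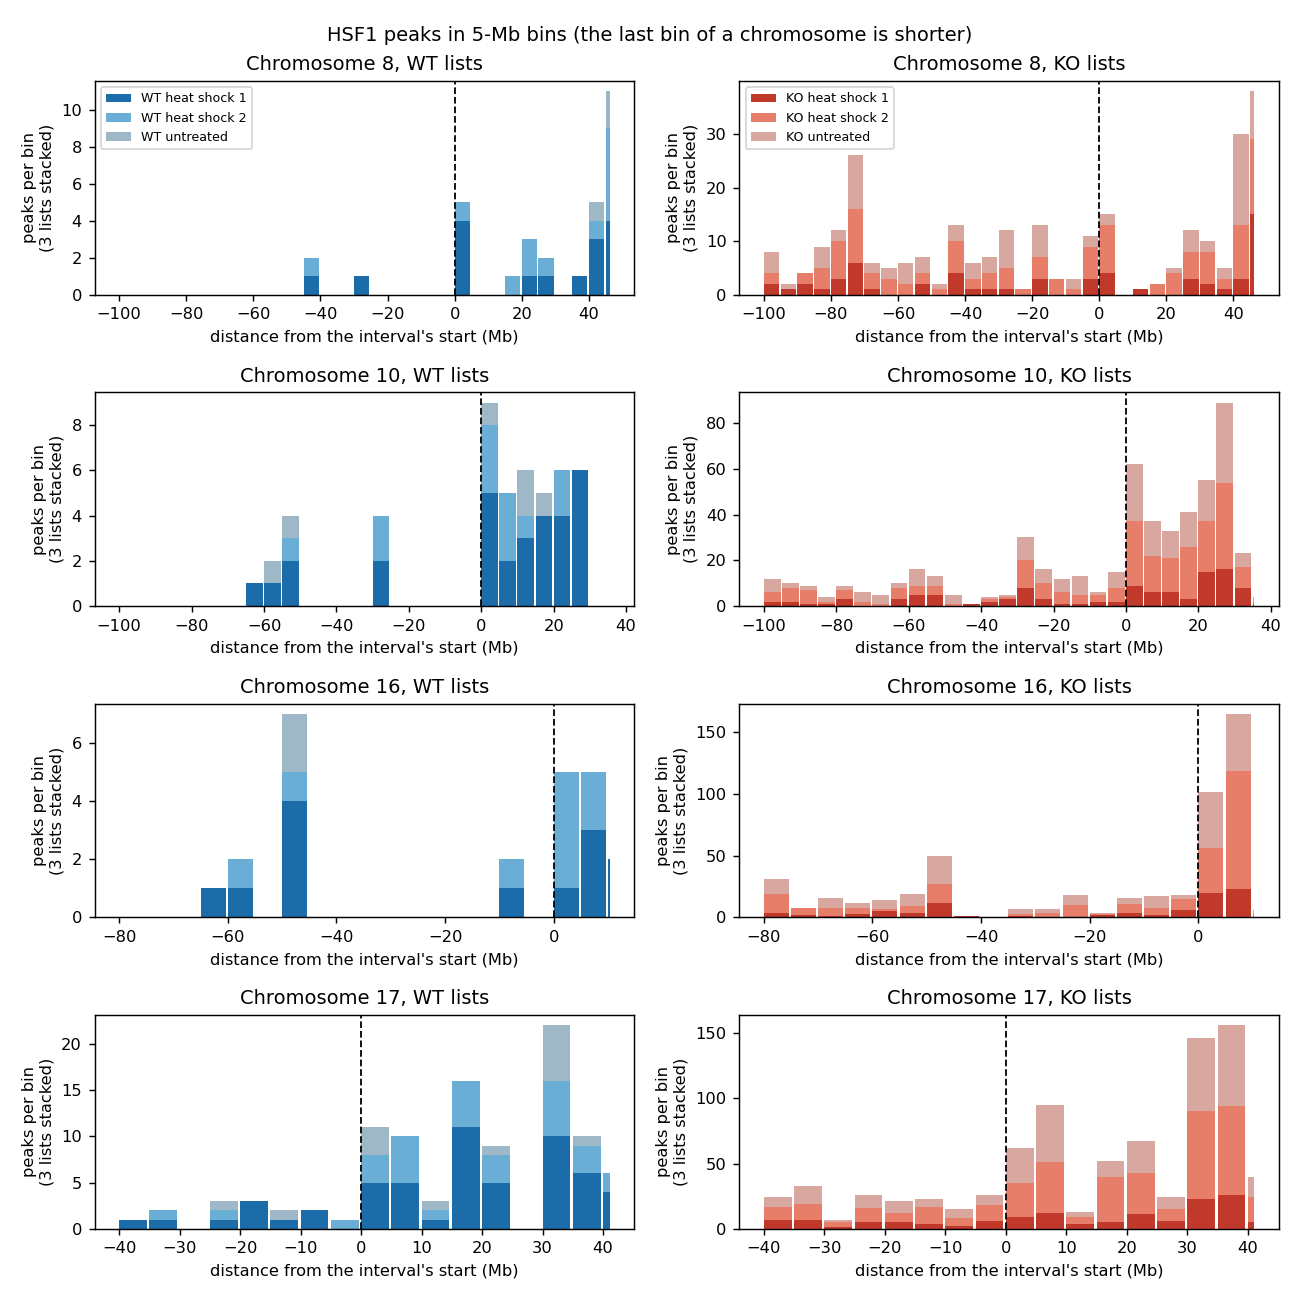
Number of HSF1 peaks in 5-Mb bins along chromosomes 8, 10, 16 and 17, with WT lists on the left and KO lists on the right and the 3 libraries of a line stacked. The dashed line is the start of the interval; counts rise at or soon after it on 10q, 16q and 17q in both lines, while KO counts on 8q rise only near the chromosome end, and the last bin of each chromosome is shorter than 5 Mb.

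The interval starts are round positions, and the counts on either side show how sharply the peaks thicken there. In the 5 Mb before and after the start of 16q, the KO lists together had 18 and 102 peaks and the WT lists 0 and 5. At 10q the KO lists had 15 and 62 and the WT lists 0 and 9, and at 17q 26 and 62 and 1 and 11. At 8q the KO lists had 11 and 15, a small step, and the WT lists 0 and 5. The peaks nearest to each start had low to moderate scores. On 16q the last peak before it (chr16:79997592-79997756) scored 64.5 and the first after it (chr16:80110686-80110854) scored 53.6, both in untreated KO. On 10q the scores were 108 before (chr10:99593444-99593767) and 52.5 after (chr10:100059217-100059389), both in KO heat shock replicate 2. On 17q they were 150 before (chr17:39819050-39819337) and 55.5 after (chr17:40066577-40066733), both in KO heat shock replicate 1. On 8q they were 55.4 before (chr8:99945943-99946086) and 56.2 after (chr8:101384192-101384348), both in untreated KO.

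Within the intervals the peaks were not spread evenly. With the 3 KO lists summed, 16q24.1 had 35.9 peaks per Mb, 16q24.3 35.7, 17q25.3 32.7 and 17q25.1 32.1. The band 10q26.13 had 18.9 per Mb and its neighbour 10q26.2 had 13.5, whereas 10q26.3, the last 4.93 Mb of the arm, had 3.04. No WT list had a peak in 10q26.3. On 8q the band 8q24.3 held 68 of the 118 KO peaks and 16 of the 28 WT peaks, and the band 8q23.1, 4.30 Mb long, held none of any list. The WT lists summed had 4.10 peaks per Mb in 17q25.1, 2.54 in 17q25.3 and 2.48 in 8q24.3.

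Many of the dense bands are those that Giemsa does not stain, which are known to be rich in GC and in genes. Unstained bands make up 51.5% of the length of the intervals and held 70.0 to 73.0% of the KO peaks and 70.3 to 74.1% of the WT peaks inside them. In the rest of the chromosomes the unstained bands span 138.4 of the 320 Mb, a smaller part than inside. They held 51.9 to 57.0% of the KO peaks there and 60 to 66.7% of the few WT peaks. Within unstained bands alone the density ratio of inside to rest in the KO lists (heat shock 1, heat shock 2, untreated) was 4.2, 5.33 and 4.26-fold, and within stained bands it was 2.24, 3.51 and 3.07-fold. The WT lists had 7.05 to 13.4-fold in unstained and 8.46 to 12.1-fold in stained bands. The density was thus higher inside the intervals for either staining class in each list.

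The median distance from a peak to the nearest peak of the same list was 31.1 kb inside the intervals and 231 kb in the rest in KO heat shock replicate 2, 96.1 and 407 kb in replicate 1, and 41.8 and 203 kb in untreated KO. In the WT heat shock lists it was 213 and 383 kb inside, against 3553 and 9718 kb in the rest. Close neighbours did not follow these medians in each list: a peak of the same list lay within 10 kb of 4.40% of members and 29.2% of the rest in WT heat shock replicate 1, of 21.1 and 33.3% in untreated WT and of 11.4 and 15.6% in KO heat shock replicate 1. These shares were 22.7 and 13.5% for the second KO heat shock list, 20 and 14.4% for untreated KO, and in WT heat shock replicate 2 9.26 and 0%. WT peaks inside also lay away from KO peaks. The median distance from a WT peak to the nearest peak of any KO list was 10.7 and 8.46 kb inside in WT heat shock replicates 1 and 2, and 0.713 and 0.115 kb in the rest. In untreated WT it was 0.182 kb inside and 0.350 kb in the rest.

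Width did not separate the members from the rest of the chromosomes. In the KO lists the median widths inside were 156, 185 and 174 bp (heat shock replicates 1 and 2, untreated), against 155, 183.5 and 174 bp in the rest. The WT medians inside were 1538, 1525 and 1997 bp (heat shock replicates 1 and 2, untreated), against 1742, 1443.5 and 2285.5 bp in the rest. The log2 ratio of the medians after heat shock was −0.05 in WT (SD 0.18, n = 2), with the replicates on either side of 0, and 0.01 in KO (SD 0.0017, n = 2). The quartiles inside, 1356.5 to 1903 bp in WT heat shock replicate 1 and 155 to 223 bp in KO heat shock replicate 2, overlapped those of the rest in each list. The covered length inside was 45.2, 136 and 106 kb in the KO lists and 158, 90.9 and 41.8 kb in the WT lists (heat shock replicates 1 and 2, untreated).

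**Figure D3:**
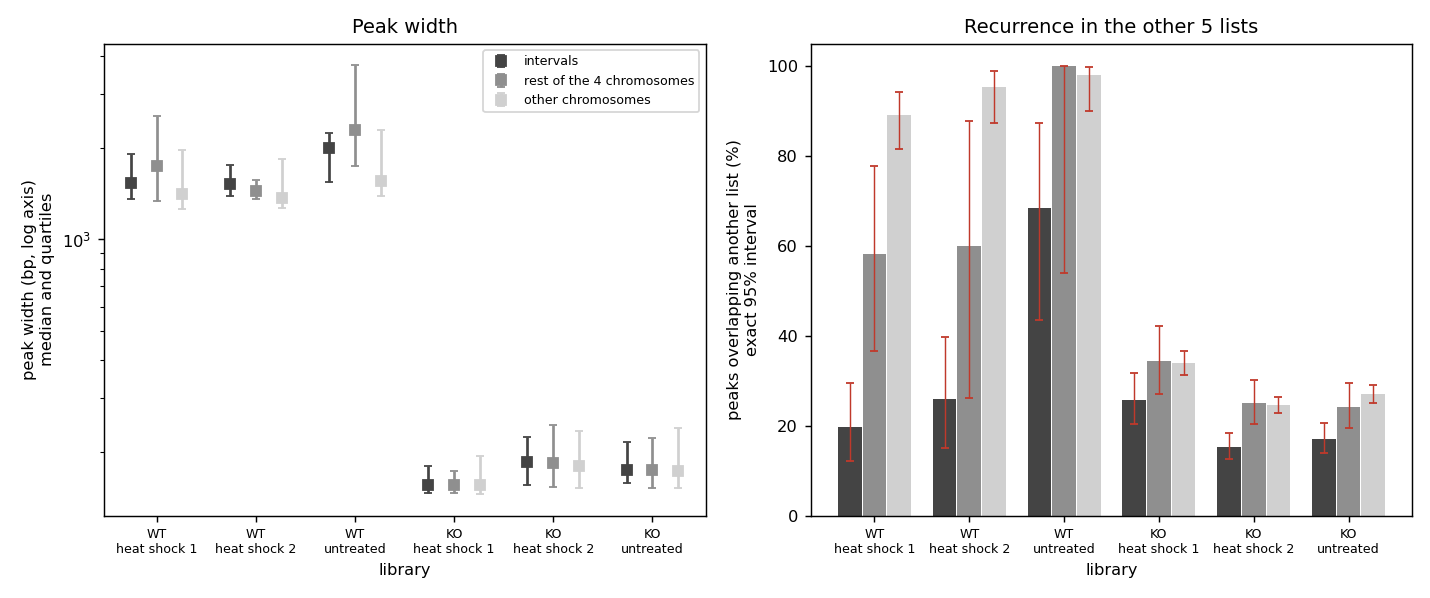
Left, peak width in bp on a log axis (squares are medians, bars the quartiles); right, the percentage of peaks that overlap a peak of any of the other 5 lists (bars start at 0, error bars are exact 95% intervals), for peaks of the intervals, the rest of the 4 chromosomes and the other chromosomes in each of the 6 libraries. Widths overlap between the parts, and the share found again is lowest inside the intervals in all 6 libraries.

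Recurrence, the overlap of a peak by at least 1 bp with a peak of any other list, was lower inside the intervals than in the rest in each list. In WT heat shock replicate 1, 18 of 91 members (19.8%) were found again, against 57.8% of all its peaks and 58.3% in the rest of the chromosomes. In WT heat shock replicate 2 it was 14 of 54 (25.9%), against 64.1% of all and 60% in the rest. In untreated WT it was 13 of 19 (68.4%), against 91.1% of all and 100% of the 6 peaks in the rest. The difference from the rest was −36.3 percentage points on average after heat shock (SD 3.17, n = 2), but their rests hold 24 and 10 peaks. A KO peak was overlapped by 17 of the 91 members of replicate 1 (all peaks of the list 55.1%), by 13 of the 54 of replicate 2 (all 61.1%) and by 13 of the 19 of untreated WT (all 87.3%).

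In KO the shortfall was smaller. KO heat shock replicate 1 had 61 of 237 members found again (25.7%), against 32.8% of all its peaks and 34.4% in the rest. KO heat shock replicate 2 had 98 of 639 (15.3%), against 22.8% of all and 25% in the rest. Untreated KO had 88 of 514 (17.1%), against 25% of all and 24.2% in the rest. A WT peak was overlapped by 25 of the 237 members of replicate 1 (10.5%, all peaks 11.4%), by 33 of the 639 of replicate 2 (5.16%, all 6.08%) and by 27 of the 514 of untreated KO (5.25%, all 7.15%), shares close to those of the whole lists. When the rest was limited to the long arms outside centromeric bands, the KO difference from the rest ended: it went from −9.15 to 1.02 percentage points after heat shock and from −7.04 to 0.084 untreated. The WT heat shock difference was −22.1 points on that rest. Among peaks that scored 100 or more the difference was 0 in both WT groups, where every such peak, inside or in the rest, was found again. It was 2.69 points in KO heat shock and −3.86 points in untreated KO. With midpoints within 500 bp in place of overlap, and all scores, it was 1.75 points in untreated WT.

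The intervals differed here too. On 10q, 6.25, 7.89 and 8.59% of KO members were found again (heat shock replicates 1 and 2, untreated), and on 8q 62.1, 34.6 and 32.4%. Without the cluster at the end of 8q the last 3 values were 35.3, 17.1 and 19.4%. On 17q they were 30.7, 17.3 and 18.1%, and on 16q 18.6, 11.9 and 20%. Peaks of 10q thus recurred least in each KO list.

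Members were also found in the other replicate of their group less often than all peaks of the list. Of the WT heat shock replicate 2 members, 8 of 54 (14.8%) overlapped a peak of replicate 1, while 48.1% of all its peaks did. In the other direction it was 8 of 91 (8.79%), against 28.0% of all peaks. For KO heat shock replicate 1, 59 of 237 members (24.9%) were in replicate 2, near the 29.6% of all its peaks. For KO heat shock replicate 2, 58 of 639 (9.08%) were in replicate 1, against 13.8% of all.

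Members had mostly low scores, as had the peaks of each whole list. The score is the deposited value for each peak and was never under 50. Its scale is not stated in the sources used here, and whether it can be compared between libraries is unknown. At 100 or more were 5 of 91 members in WT heat shock replicate 1, 5 of 54 in replicate 2 and 1 of 19 in untreated WT (5.49, 9.26 and 5.26%), against 21.3, 21.4 and 30.4% of all peaks of these lists. In KO they were 36 of 237, 67 of 639 and 56 of 514 (15.2, 10.5 and 10.9% for heat shock replicates 1 and 2 and untreated), against 13.8, 15.7 and 17.9% of all. In the rest of the 4 chromosomes, in the same order, the shares were 16.7, 10 and 33.3% in WT (of 24, 10 and 6 peaks) and 11.25, 17.6 and 16.8% in KO. WT heat shock replicate 2 thus hardly differed from its rest, and KO heat shock replicate 1 lay above it. KO heat shock replicate 1 was the one list in which members reached 100 slightly more often than all peaks, and 12 of its peaks lie in the cluster on 8q.

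With the 3 lists of a line put together, the share of WT peaks that lay inside the intervals was 49.4% at scores of 50 to 60, 49.5% at 60 to 75, 30.3% at 75 to 100 and 15.7% at 100 to 200. At 200 or more it was 0 of 30 peaks (exact 95% interval 0 to 11.6%). A site called in several lists is counted once for each list in these pooled numbers, so the interval is too narrow. In KO the shares were 19.6, 18.8, 16.4, 11.9 and 14.0% in the same classes. WT peaks of the weakest classes were thus inside far more often than strong ones, and KO peaks only somewhat more often. Recurrence followed the score as well: all 11 WT members and 62 of 81 KO members (76.5%) at 100 to 200 were found again, against 10 of 81 WT (12.3%) and 40 of 828 KO members (4.83%) at 50 to 60. At 200 or more all 78 KO members were found again, as were all 42 peaks of the rest. At 50 to 60 the WT peaks of the rest were found again at 58.8% (10 of 17) and the KO peaks at 8.82% (36 of 408).

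**Figure D4:**
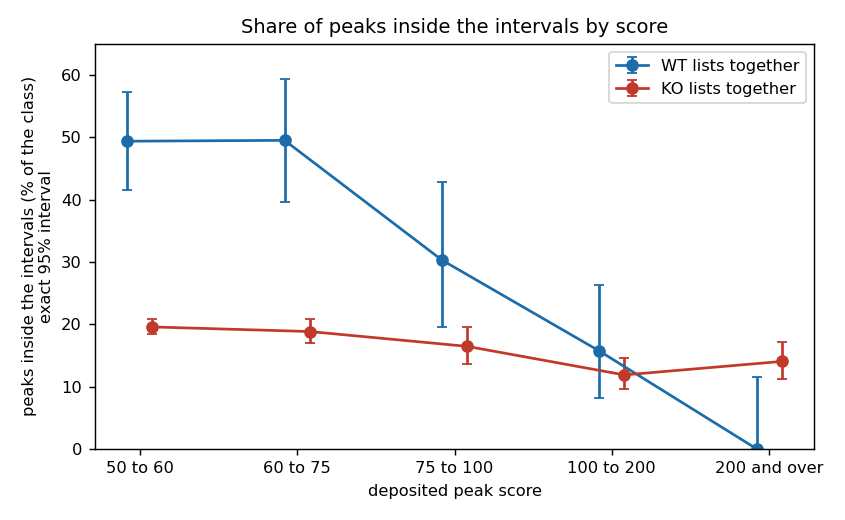
Percentage of the peaks of each score class that lie inside the intervals, for the 3 WT lists together and the 3 KO lists together, with exact 95% intervals (counting error only). A site called in several lists is counted once for each, so the 95% intervals are too narrow. The WT share is 49.4 and 49.5% for the 2 lowest classes and 0 at 200 and over, and the KO share lies between 11.9 and 19.6%.

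When peaks that overlapped between lists were merged, 6597 regions resulted, and 1356 of them lay in the intervals. A peak in 2 or more lists was found at 94 of the 1356 (6.93%), against 11.1% of all regions and 12.1% of those in the rest of the 4 chromosomes. Of the regions in the intervals 1209 had peaks in KO lists alone, 120 in WT lists alone and 27 in both. Regions with a WT peak had no KO peak at 120 of 147 (81.6%), against 48.6% of all regions with a WT peak, 14 of 31 (45.2%) in the rest and 20 of 139 (14.4%) on other chromosomes. A region with a KO peak was in all 3 KO lists at 43 of 1236 (3.48%), against 5.51% of all regions with a KO peak.

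A small set of members did recur in every library. Regions with a peak in all 6 lists numbered 7 of 1356 (0.516%), close to the 0.561% of all regions. Of the 7, 6 lay on 17q, which held 638 of the 1356 regions. The share in all 6 lists was 0.940% on 17q and 0.980% on 8q. At chr17:64562651-64564238 (17q24.2) WT scores were 89.1 (heat shock 1), 68.9 (heat shock 2) and 131 (untreated), and KO scores 683, 1632 and 824 likewise. At chr17:74454783-74457568 (17q25.1) they were 136, 153, 79.7, 508, 876 and 1178 in the same order. At chr17:54910387-54911888 (17q22) they were 179, 177, 59.7, 489, 1065 and 922.5. At chr17:44858627-44860658 (17q21.31) they were 122, 51.0, 73.0, 579, 1116 and 750. Ranked by score within its own list, the first of these regions was 59th, 55th and 16th in the WT lists and 14th, 13th and 36th in the KO lists, of 225, 131, 79, 1566, 3257 and 2866 peaks. The region on 8q found in all 6 lists, chr8:145534331-145536247, belongs to the cluster described above, with 104, 142, 68.5, 647, 387 and 130. Its ranks by score were 16 of 1566 and 108 of 3257 in KO heat shock replicates 1 and 2, and 368 of 2866 in the untreated KO list. The adjoining chr8:145536977-145538707 ranked 11, 51 and 215 in these lists and chr8:145532432-145533996 ranked 18, 98 and 252. Scores and ranks of separate lists are set side by side only, since depth and list length differ.

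On 16q and 10q no region had a peak in all 6 lists. The leading regions of 16q were chr16:81526989-81528506 (16q23.2), with KO scores of 331 (heat shock 1), 949 (heat shock 2) and 811 (untreated) and a WT score of 51.5 (heat shock 2), and chr16:89227328-89228505 (16q24.3), with 341, 571 and 671 in KO and 52.7 in WT heat shock replicate 1. Next came chr16:89050494-89051137 and chr16:85429418-85429879, both found in every KO list but without a WT peak, with highest scores of 439 and 272. On 10q the leading regions were chr10:121410734-121411197 (10q26.11), with 262, 423 and 431 in the KO lists, and chr10:126812375-126812949 (10q26.13), with 143, 180 and 311. Neither had a WT peak.

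The leading WT regions without a KO peak were broad, as WT peaks were in general. They were mostly of a single list, as were 93.1% of all regions in the intervals. The exception was chr10:114755699-114758206 (10q25.2), 2508 bp long, which scored 56.1 in WT heat shock replicate 1 and 103 in replicate 2. It was the one region of the intervals found in more than 1 WT list and no KO list. Among the others were chr8:128771916-128773597 (98.7), chr17:56165945-56167963 (91.6), chr17:70552679-70555394 (89.8) and chr10:126748920-126750859 (82.0), all in WT heat shock replicate 1, and chr16:89431177-89433405 (88.0) in replicate 2. None of these 5 reached a score of 100. The highest-scoring peaks of a single KO list had 177 at chr10:102819743-102820100 in untreated KO and 151 at chr17:70973573-70974306 in KO heat shock replicate 2.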

How the data were processed

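Every HSF1 library has its own peak list, made against the matching input (same line, same condition), per the file labels. Per the submitters' processing notes, the build was hg19 and the tools included CASAVA, Bowtie 0.12.7 and MACS 1.4.2; settings are not given in the sources used here. The score is the authors' deposited value and served only to order or filter peaks. Read depth, fold enrichment and repeats were not assessed, and a missing peak does not show that HSF1 was absent.

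Chromosome lengths came from GenomeInfoDb 1.38.1 and cytogenetic bands from circlize 0.4.16. Peaks per Mb, median widths and overlaps of at least 1 bp were computed in Python 3.11.15 with numpy 2.4.6, pandas 2.3.3 and scipy 1.17.1 (exact Clopper-Pearson 95% intervals, counting error only) and drawn with matplotlib 3.10.9. Overlap counts equalled those of bedtools 2.31.1 for the 30 ordered pairs of lists, and the functions were tested on simulated data. Positions are printed 1-based. The members, intervals and measures were chosen with earlier results of these data known, so no test was made. Regions were named by fixed rules: for each interval the 4 in most lists, the 2 highest-scoring of a single list per line, the 3 leading WT regions without a KO peak, and the peaks on either side of the start, ties ordered by score. No hg19 annotation or genome was at hand, so no gene or sequence is given.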

Additional observations from a re-analysis of the deposited data

How the results depend on the processing

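Density, width and recurrence inside the intervals against the rest gave 12 values (3 measures, 4 groups). Of 100 recalculations 72 stayed within the spread of the replicates or, for single libraries, the 95% interval, and 28 moved beyond it. Those that left out a replicate could only stay, since each value of a pair lies within the SD of its mean. The KO heat shock width ratio had an SD of 0.0017, so even slight shifts counted as moved. These counts are thus no measure of robustness. Density was higher inside in all 32 recalculations, from 1.20 to 12.9-fold. Without either replicate the log2 density ratio was 3.18 to 3.69 in WT heat shock and 1.83 to 2.30 in KO heat shock, the log2 width ratio −0.18 to 0.079 and 0.0093 to 0.012, and the recurrence difference −38.6 to −34.1 and −9.66 to −8.64 percentage points. Unstained bands and leaving out the densest 25 kb of each interval were chosen after seeing the data.

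At a score of at least 100, the log2 density ratio was 2.58 in WT heat shock (10 peaks inside, 5 in the rest), 0.26 for untreated WT (1 and 2) and 1.43 in untreated KO; on 17q alone it was −1.04 for untreated WT (1 and 2), against 2.54 with all peaks. The width ratio was −0.94 for untreated WT, 0.10 for KO heat shock and 0.14 in untreated KO. The recurrence difference was 0 in both WT groups and 2.69 points in KO heat shock, and in untreated KO it stayed within its interval at −3.86. With the rest limited to the long arms, untreated WT had a width of −0.99 (2 peaks in the rest) and KO heat shock 0.012, and recurrence −22.1 points in WT heat shock, 1.02 in KO heat shock and 0.084 in untreated KO. In unstained bands, width was 0.067 in untreated WT, and recurrence −28.8 points in WT heat shock, −11.1 in KO heat shock and −10.2 in untreated KO. Without the densest 25 kb, recurrence was −40.2 points in WT heat shock and −12.5 in KO heat shock, and the KO heat shock width 0.0059. Joining peaks within 1000 bp gave a KO heat shock width of 0.012. Starts 5 Mb further out gave 0.0066 for that width and −10.1 points for KO heat shock recurrence, and starts 5 Mb nearer 0.0085 and −11.8. With midpoints within 500 bp, recurrence was 1.75 points for untreated WT and −7.59 for KO heat shock. The cause of these moves was not tested. At a score of at least 100, 12 of the 36 named regions had no peak left in any list. No paired analysis was possible because no model was fitted, and the labels do not say what equal replicate numbers share. Replicates 1 and 2 of KO over those of WT gave 2.60 and 11.8-fold peak numbers inside and 6.67 and 31.2-fold in the rest.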

Other observations

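Outside the intervals, single 5-Mb bins held more KO peaks than the other bins of the rest of their chromosome. On chromosome 16 the bin 50 Mb before the start of the interval held 50 KO and 7 WT peaks. On chromosome 10 the bin 30 Mb before the start held 30 KO and 4 WT peaks, and on chromosome 8 the bin 75 Mb before it held 26 KO and 0 WT peaks. On chromosome 17 the highest KO count outside the interval was 33, with 2 WT peaks in the same bin. The medians over full bins of the rest were 15, 9.5, 6.5 and 23.5 KO peaks on chromosomes 16, 10, 8 and 17, against 133.5, 41, 5 and 64.5 inside the intervals, so the median bin of 8q held fewer KO peaks than the median bin of the rest of chromosome 8.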
